A study of Mus musculus with 19 samples.

Results

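The genes described here are 40 cell cycle genes, given as a list of symbols, that are expressed when cells replicate DNA or divide and that the literature describes as switched off when p21 accumulates. A probe on the array was assigned to a gene through its transcript accession, which gave 48 probes for 38 of the 40 genes, and no probe was named for Mki67 or Ncapg. Of the 38, 32 passed the filter on dim probes and were tested, among 19315 genes tested in all. The 6 left out were Ccne2, Cdc45, Aurkb, Ttk, Kif11 and Hmmr, whose probes were well above background in lung on at most 1 of the 19 arrays. No member passed the test as lower than in vehicle controls at any dose, so the set is called here by what its members do, proliferation genes, and not by repression.

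The series measured lung RNA from male MutaMouse (transgenic mouse strain 40.6), 25 weeks old, gavaged daily for 28 days with vehicle or with BaP (benzo(a)pyrene), a combustion product whose metabolites form adducts on DNA. Tissue was collected 3 days after dosing ended, from a piece of each lung. Vehicle was given to 5 mice (controls 1 to 5) and BaP to 14: 5 received 25 mg/kg/day (mice 6 to 10), 4 received 50 (mice 12 to 15) and 5 received 75 (mice 16 to 20). Each mouse had its own 2-colour Agilent array, with lung RNA in Cy5 and a common reference, pooled RNA of 11 mouse cell lines, in Cy3, and all values below are log2 ratios of lung over reference. All groups share the strain, sex, age and schedule, and the vehicle mice differ only in receiving no BaP, as far as the labels say. The question was whether the rise of p21 in these lungs went with lower proliferation genes.

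p21, encoded by Cdkn1a, is a p53 target that binds and inhibits cyclin-dependent kinases. With those kinases inhibited, the pocket proteins stay unphosphorylated and hold E2F factors and the DREAM complex on cell cycle promoters, which lowers transcription of genes for replication and mitosis. Adult lung is a tissue of slow turnover, in which few cells are in cycle at a given time, so these genes are transcribed by a minority of its cells.

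The sites through which this repression is known to act are short promoter motifs: the CHR (cell cycle genes homology region, TTTGAA or TTCGAA), often paired with CCAAT boxes in genes of mitosis, and E2F sites (TTCGCGC, or the forms TTGGCGC, or else TTCCCGC, and lastly TTGCCGC) in genes of S phase. Each was searched on both strands in windows of 300 bases that span the RefSeq gene start on GRCm38.p6, which the table held for 33 of the 40 genes. A CHR was present in 19 of the 33 windows (57.6%) against 19.4% of 27025 windows of all genes, an E2F motif in 13 (39.4%) against 9.69%, and CCAAT in 25 (75.8%) against 37.9%. CHR and CCAAT stood together in 19 member windows and in 7.7% of all windows. E2F motifs can overlap each other, as they do in Mcm5. The 4 windows below are printed because they show the layouts of the set: a mitotic cyclin with CHR and CCAAT (Ccnb2), a gene with all 3 motifs (Cdk1), a replication gene with E2F and CCAAT (Mcm5), and Rrm1, the member called higher at the top dose. Each runs 5′ to 3′ on the gene's strand, and capitals mark the motifs.
Ccnb2: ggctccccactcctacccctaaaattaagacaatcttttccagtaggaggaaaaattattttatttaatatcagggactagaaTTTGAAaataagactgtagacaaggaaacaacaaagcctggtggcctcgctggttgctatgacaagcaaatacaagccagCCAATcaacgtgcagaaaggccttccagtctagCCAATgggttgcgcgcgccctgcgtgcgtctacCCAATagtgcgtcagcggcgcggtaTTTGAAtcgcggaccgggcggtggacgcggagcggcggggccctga
Cdk1: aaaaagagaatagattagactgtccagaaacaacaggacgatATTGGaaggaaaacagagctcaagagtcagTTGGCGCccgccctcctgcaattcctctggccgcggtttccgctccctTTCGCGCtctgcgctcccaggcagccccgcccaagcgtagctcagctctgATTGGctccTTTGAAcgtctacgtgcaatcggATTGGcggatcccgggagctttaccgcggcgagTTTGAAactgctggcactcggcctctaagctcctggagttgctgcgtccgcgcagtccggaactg
Mcm5: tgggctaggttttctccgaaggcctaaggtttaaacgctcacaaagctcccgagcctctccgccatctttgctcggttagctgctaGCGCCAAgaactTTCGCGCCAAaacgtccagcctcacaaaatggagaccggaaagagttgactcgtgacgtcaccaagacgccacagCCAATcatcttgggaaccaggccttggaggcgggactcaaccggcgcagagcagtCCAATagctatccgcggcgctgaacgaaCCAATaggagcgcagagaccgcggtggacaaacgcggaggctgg
Rrm1: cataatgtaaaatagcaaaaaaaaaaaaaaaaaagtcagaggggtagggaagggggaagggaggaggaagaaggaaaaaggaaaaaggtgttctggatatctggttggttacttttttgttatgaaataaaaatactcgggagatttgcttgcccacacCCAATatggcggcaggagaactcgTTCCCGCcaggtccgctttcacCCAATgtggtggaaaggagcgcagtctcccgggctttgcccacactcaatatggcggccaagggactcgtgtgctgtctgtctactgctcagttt
Ccnb2 lies on chr9:70421505-70421804 (minus strand), Cdk1 on chr10:69352863-69353162 (minus), Mcm5 on chr8:75109259-75109558 (plus) and Rrm1 on chr7:102441445-102441744 (plus). The Ccnb2 window held 2 CHR and 3 CCAAT matches, that of Cdk1 2 CHR, 2 E2F and 3 CCAAT, that of Mcm5 3 E2F and 3 CCAAT, and that of Rrm1 1 E2F and 2 CCAAT with no CHR. The window of Cdkn1a held 0 of the 3 motifs. A match describes letters and is not a measured binding site.

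The lung channel had between 19777 and 27279 spots well above background per array, and the number of arrays limits the precision. Of the 32 tested members, 23 were well above background on all 19 arrays, and the vehicle arrays had 23 to 31 of the 32 well above background, against 31 or 32 at 75 mg/kg/day. The lung markers Sftpc, Sftpb, Scgb1a1, Ager and Cldn5 were well above background on all 19 arrays. Nothing in the labels says whether the mice of a group were littermates or cage mates, so p-values measure the spread between these mice. The arrays lay on 6 slides, and slides held several groups.

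Cdkn1a rose with dose in every comparison. The vehicle mice had log2 ratios of -1.67, -1.30, -1.38, -1.44 and -0.95, and the mice at 25 mg/kg/day 0.55, -0.09, 0.23, -0.09 and -0.55. The ratios at 50 mg/kg/day were 1.44, 1.35, 0.86 and 1.35, and at 75 mg/kg/day 2.40, 1.89, 2.51, 1.27 and 1.56. Every treated mouse lay above every vehicle mouse, while the ranges at 50 and 75 mg/kg/day overlapped. The group means were -1.35 ± 0.26 (SD, n = 5), 0.01 ± 0.41 (n = 5), 1.25 ± 0.26 (n = 4) and 1.93 ± 0.53 (n = 5). Against vehicle Cdkn1a was 1.36 ± 0.23 (SE) higher on the log2 scale at 25 mg/kg/day (limma adjusted p = 0.023), 2.60 ± 0.24 at 50 (adjusted p = 6.6e-06) and 3.28 ± 0.23 at 75 (adjusted p = 3.3e-08), the last being 9.69-fold (95% interval 6.99 to 13.4). The call at 25 mg/kg/day held in 21 of 33 alternatives, with differences of 1.22 to 1.56.

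**Figure D1:**
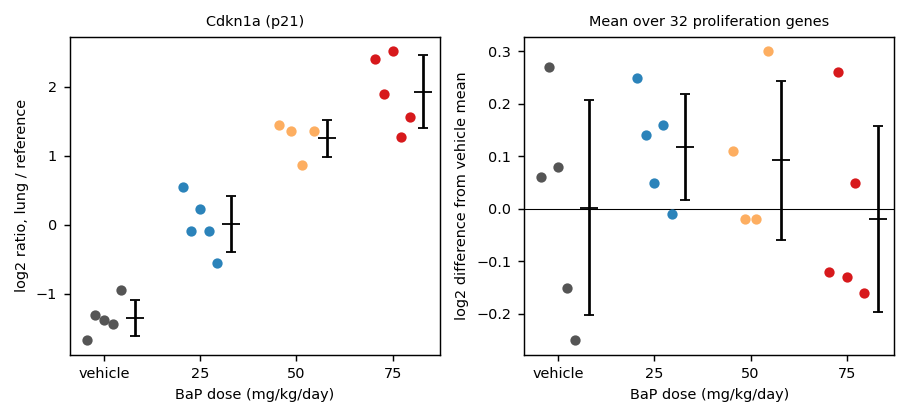
Left, log2 ratio of Cdkn1a in lung over reference in each mouse; right, the mean over 32 proliferation genes of the log2 difference from the vehicle mean, in the same mice. Points are mice and the bars beside them the group mean ± SD (n = 5, 5, 4 and 5); Cdkn1a climbs from a mean of -1.35 to 1.93, while the means of the proliferation genes stay between -0.02 and 0.12 with overlapping mice.

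None of the 32 tested proliferation genes was called lower at any dose. At 25 mg/kg/day limma called 0 members in either direction, where 0.0518% of all genes passed. At an unadjusted p under 0.05, 4 members were higher and 0 lower, beside 940 and 565 of all 19315 genes. At 50 mg/kg/day limma again called 0, against 1.08% of all genes. At the unadjusted level 4 members were higher and 0 lower, beside 1287 and 1172 of all genes. At 75 mg/kg/day 1 member, Rrm1, was called higher and 0 lower, against 4.14% of all genes called in either direction (2.64% higher and 1.51% lower). Rrm1 was also the single member past an unadjusted p of 0.05, beside 1828 of all genes higher and 1506 lower. With 32 members, shares of 2.64% and 1.51% each come to less than 1 gene. A count of 1 higher and 0 lower members is thus no departure from the background. The count of members called lower stayed 0 at each dose in all 33 alternatives run, while some counts of higher members moved.

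The members' differences lay on both sides of 0, and the sign of their median at 75 mg/kg/day depended on the scaling. Their median log2 difference from vehicle was 0.12 at 25 mg/kg/day, 0.06 at 50 and -0.05 at 75, beside 0.01, 0.00 and -0.01 over all genes tested. Of the 32, 9 lay below 0 at 25 mg/kg/day, 13 at 50 and 20 at 75, beside 9146, 9712 and 10032 of all 19315 genes. The members' counts were 0, 5 and 7 with the scanner software's processed signals and 2, 3 and 0 when arrays were centred on their medians without loess. The members' median at 75 mg/kg/day then turned from -0.05 to 0.22 and 0.58, which is 0.27 and 0.23 above the median of all genes in the same setting. The lowest was Bub1 at each dose (-0.22, -0.20 and -0.34), and the highest was Mcm6 (0.49) at 25 mg/kg/day, Ccna2 (0.45) at 50 and Rrm1 (0.69) at 75. The 95% intervals reached a median of 0.31, 0.33 and 0.31 to either side of these differences. They lay above a 2-fold fall for all 32 members at each dose, and above a 1.5-fold fall for 31, 31 and 29. The members whose interval reached a 1.5-fold fall were Bub1 at each dose and also Top2a and Cenpa at 75 mg/kg/day. Their probes were well above background on 9 (Bub1), 16 (Top2a) and 10 (Cenpa) of the 19 arrays. For the 23 members well above background on every array the medians were 0.14, 0.09 and -0.01. The 6 dim members, fitted without the filter, ranged from -0.32 (Cdc45) to 0.04 (Ccne2) at 75 mg/kg/day, and none passed the threshold (lowest adjusted p = 0.34, Hmmr, limma over all genes). Since the offset added before taking ratios draws the ratios of dim spots together, a change in a dim member is understated. In whole lung, fewer cycling cells and less RNA per cell cannot be told apart.

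**Figure D2:**
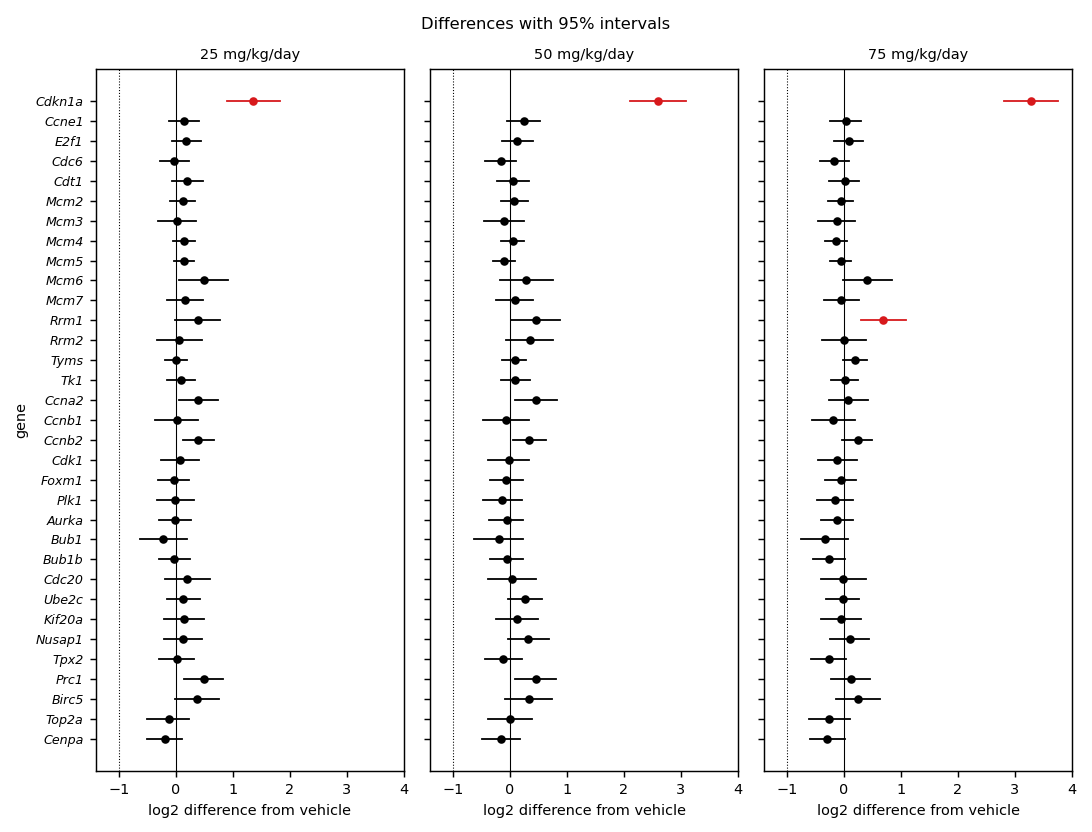
Log2 difference from vehicle of Cdkn1a and the 32 tested proliferation genes at 25, 50 and 75 mg/kg/day, with 95% intervals from limma; red marks an adjusted p under 0.05 and the dotted line a 2-fold fall. Cdkn1a stands at 1.36, 2.60 and 3.28, Rrm1 is the single red member (0.69 at 75 mg/kg/day), and no member's interval reaches the dotted line.

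Among the treated mice, the step from 25 to 75 mg/kg/day took Cdkn1a up by 1.92 ± 0.23 (adjusted p = 0.00032). Over the same step 30 of the 32 members were below 0, beside 10507 of all 19315 genes, with a median of -0.15 against -0.01 over all genes. Of the members 0 passed the threshold, against 0.549% of all genes. At an unadjusted p under 0.05, 3 members were lower (Mcm4, Mcm5 and Prc1) and 0 higher, beside 638 and 685 of all genes. Mcm4 was the single member whose mice at 75 mg/kg/day all lay below those at 25, against 0.906% of all genes. When arrays were centred on their medians and loess was left out, all genes had a median of 0.20 in this comparison and the members 0.18, a gap of -0.02. The gap was -0.14 with the settings used and -0.11 with processed signals. A linear trend over dose in all 19 mice, in units of 25 mg/kg/day, called 1 member higher (Rrm1) and 0 lower, against 4.64% of all genes. At the unadjusted level 2 members were higher and 1 lower, beside 1783 and 1626 of all genes. The trend within the 14 treated mice called 0 members, against 0.549% of all genes. Here 1 member was higher and 3 lower at an unadjusted p under 0.05, beside 753 and 790 of all genes.

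Neither of the 2 tested members that regulate G1/S, Ccne1 and E2f1, passed the threshold. Ccne1, the cyclin E that drives entry into S phase with Cdk2, had ratios of -1.52, -1.45, -1.63, -1.77 and -1.90 in vehicle mice and -1.77, -1.51, -1.71, -1.48 and -1.64 at 75 mg/kg/day. The ranges lay within each other, and the difference was 0.03 ± 0.13 (limma adjusted p = 0.93). E2f1, the activator whose own targets include many of the members, differed by 0.18, 0.13 and 0.08 at the 3 doses. A second E2f1 probe gave -0.08, -0.12 and -0.22, so the sign of E2f1 depends on the probe. A second Ccne1 probe gave -0.08, -0.14 and -0.09.

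The 8 tested genes of origin licensing and the replicative helicase had a median difference of 0.14 at 25 mg/kg/day, 0.05 at 50 and -0.06 at 75, and none passed the threshold. Mcm2 to Mcm7 encode the subunits of the helicase ring, which Cdc6 and Cdt1 load on origins. Mcm5 had ratios of -2.09, -2.09, -2.03, -2.18 and -2.24 in vehicle mice and -2.22, -2.02, -2.19, -2.11 and -2.40 at 75 mg/kg/day, a difference of -0.06 ± 0.09 (adjusted p = 0.78). This was one of the tightest members, with a 95% interval of -0.24 to 0.12. Mcm2 differed by 0.12, 0.07 and -0.06 at the 3 doses and Cdc6 by -0.03, -0.16 and -0.18. Mcm4 had ratios of -1.80, -2.01, -1.60, -1.90 and -2.06 in vehicle mice. They were -1.88, -1.75, -1.73, -1.58 and -1.73 at 25 mg/kg/day, -2.02, -1.82, -1.83 and -1.63 at 50, and -2.12, -1.92, -2.13, -1.93 and -1.98 at 75. The mice at 75 mg/kg/day lay below those at 25 but among the vehicle mice, and the differences were -0.28 ± 0.09 against 25 mg/kg/day (adjusted p = 0.32) and -0.14 ± 0.09 against vehicle (adjusted p = 0.46). Mcm6 was 0.49, 0.29 and 0.41 higher, with adjusted p of 0.57, 0.62 and 0.32.

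Rrm1, the large subunit of ribonucleotide reductase, which makes deoxynucleotides for replication and repair, was the one member called higher at 75 mg/kg/day. Its vehicle ratios were -2.77, -2.00, -2.43, -2.31 and -2.11, and those at 25 mg/kg/day -1.91, -1.80, -2.28, -1.76 and -2.00. The ratios at 50 mg/kg/day were -1.95, -1.74, -2.07 and -1.75, and at 75 mg/kg/day -1.56, -1.31, -1.13, -1.77 and -2.41. At the top dose 4 of 5 mice lay above every vehicle mouse, and mouse 20 lay among the vehicle mice. The difference was 0.38 ± 0.19 at 25 mg/kg/day (adjusted p = 0.66), 0.45 ± 0.20 at 50 (adjusted p = 0.36) and 0.69 ± 0.19 at 75 (limma adjusted p = 0.045), or 1.61-fold with a 95% interval of 1.23 to 2.13. In the lung channel alone it was 0.66 higher and in the reference channel -0.03, so the ratio moved with the lung RNA.

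The Rrm1 call sat at the edge of the threshold. It held in 15 of 33 alternatives, with differences of 0.56 to 1.35 and adjusted p of 0.0022 to 0.14. Leaving out 1 mouse at a time, it held without control 2, control 5, mouse 8, mouse 12 or mouse 20, and was lost in the other 14 of 19 runs, at worst without mouse 18 (0.56, adjusted p = 0.14). With slide as a block it was 0.74 (adjusted p = 0.018), and within the 4 slides that held a vehicle mouse and a mouse at 75 mg/kg/day it was 1.12, 1.19, 0.23 and 0.36. The trend over dose was 0.21 ± 0.06 per 25 mg/kg/day (adjusted p = 0.037). The other nucleotide supply genes did not pass the threshold: Tyms, thymidylate synthase, differed by 0.19 ± 0.10 at 75 mg/kg/day (adjusted p = 0.31), Tk1, thymidine kinase, by 0.01 and Rrm2, the small subunit made in S phase, by 0.00. Rrm2b, the p53-inducible small subunit, is no member and was looked up after the Rrm1 value was seen, and it differed by 0.12, 0.00 and 0.06 (adjusted p = 0.79 at 75 mg/kg/day).

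**Figure D3:**
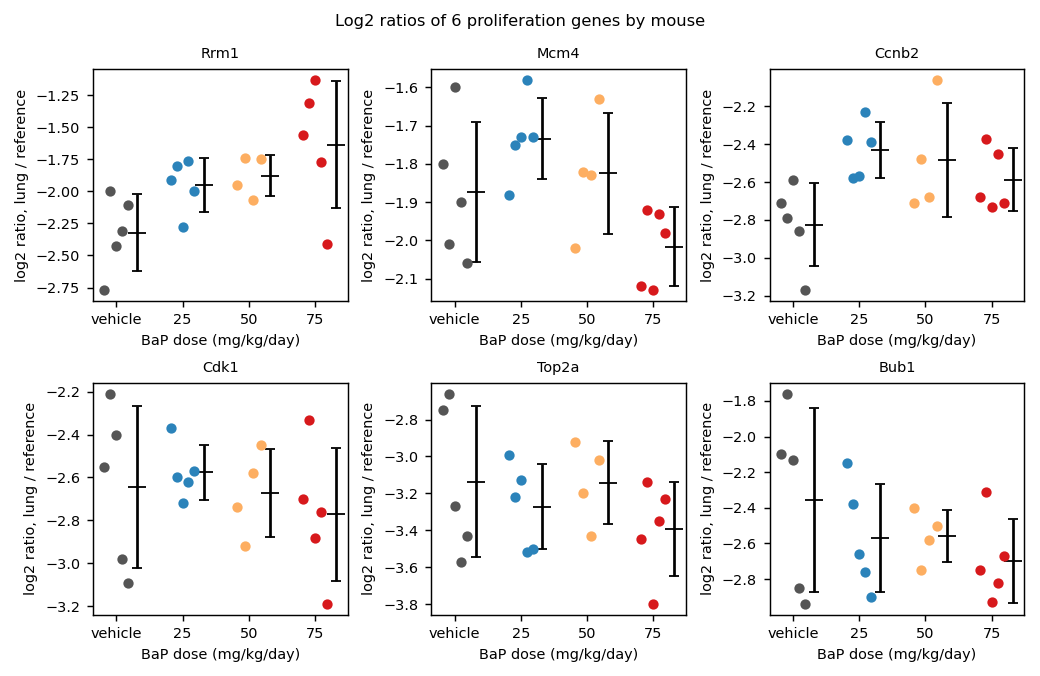
Log2 ratio of lung over reference in each mouse for Rrm1, Mcm4, Ccnb2, Cdk1, Top2a and Bub1, each panel on its own axis, with the group mean ± SD beside the points (n = 5, 5, 4 and 5). Rrm1 is higher in 4 of 5 mice at 75 mg/kg/day than in any vehicle mouse, and in the other panels the mice at 75 mg/kg/day overlap the vehicle mice.

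The cyclins Ccnb2 and Ccna2 stood above vehicle at the low dose without passing the threshold. Ccnb2, a cyclin B partner of Cdk1, had ratios of -2.71, -2.79, -2.59, -2.86 and -3.17 in vehicle mice and -2.38, -2.58, -2.57, -2.23 and -2.39 at 25 mg/kg/day. Ccna2, the cyclin of S phase and G2, had -3.49, -3.40, -3.35, -3.58 and -3.71 in vehicle mice and -3.04, -3.09, -3.15, -3.09 and -3.19 at 25 mg/kg/day. In both, all mice at 25 mg/kg/day lay above all vehicle mice, the 2 members of 32 of which this was so, against 0.994% of all genes, but neither passed the threshold (0.39 ± 0.13, adjusted p = 0.42, and 0.39 ± 0.16, adjusted p = 0.57). At 75 mg/kg/day the ranges overlapped and the differences were 0.24 for Ccnb2 and 0.07 for Ccna2.

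Cdk1, the mitotic kinase, had ratios of -2.55, -2.21, -2.40, -2.98 and -3.09 in vehicle mice and -2.70, -2.33, -2.88, -2.76 and -3.19 at 75 mg/kg/day. The vehicle mice spread over nearly the whole range of the treated ones, and the differences were 0.07, -0.02 and -0.12 ± 0.16 at the 3 doses (adjusted p = 0.76 at 75 mg/kg/day). Ccnb1, the main mitotic cyclin, differed by 0.01, -0.07 and -0.19 and Foxm1, the factor that activates G2 and M phase genes, by -0.04, -0.07 and -0.06. The Ccnb1 probe used was well above background on 2 of 5 vehicle arrays and 14 of all 19. Dimmer Ccnb1 probes, well above background on 5 and 3 arrays, gave 0.01, -0.04 and -0.23, and -0.25, -0.27 and -0.42. The mitotic kinases Plk1 and Aurka differed by -0.16 and -0.12 at 75 mg/kg/day, with adjusted p of 0.65 and 0.72.

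Several members of mitosis lay below 0 at 75 mg/kg/day without passing the threshold, while Cdc20 and Ube2c, which act in anaphase, stood at -0.01 and -0.02. Bub1, a checkpoint kinase of the kinetochore, had ratios of -2.10, -1.76, -2.13, -2.85 and -2.94 in vehicle mice and -2.75, -2.31, -2.93, -2.82 and -2.67 at 75 mg/kg/day. Controls 1, 2 and 3 were high and controls 4 and 5 lay among the lowest treated mice, and the difference of -0.34 ± 0.20 was within the spread of the vehicle mice (adjusted p = 0.39). The Bub1 probe was well above background in lung on 1 of 5 vehicle arrays and 9 of all 19, so its vehicle ratios come mostly from dim spots. Bub1b, the partner BubR1 of Bub1, differed by -0.26 ± 0.13 (adjusted p = 0.31), Cenpa, the centromeric histone, by -0.29 ± 0.15 (adjusted p = 0.32) and Tpx2, the spindle factor that activates Aurora A, by -0.27 ± 0.15 (adjusted p = 0.35). The Cenpa probe was well above background on 1 of 5 vehicle arrays and 10 of all 19. Tpx2 was the member that was lower in the trend over dose at an unadjusted p under 0.05 (-0.10 ± 0.04 per 25 mg/kg/day, adjusted p = 0.27).

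Top2a, the topoisomerase that separates replicated chromosomes, had ratios of -2.75, -2.66, -3.27, -3.57 and -3.43 in vehicle mice and -3.45, -3.14, -3.80, -3.35 and -3.23 at 75 mg/kg/day. The groups overlapped, with a difference of -0.26 ± 0.17 (adjusted p = 0.49). With the scanner software's processed signals it was instead 0.66 higher and called, and centring arrays on their medians without loess put it at 0.27, so its direction depends on the processing. Bub1, Bub1b, Cenpa and Tpx2 likewise lay above 0 at 75 mg/kg/day in 2 alternatives each, processed signals and median centring. Prc1 and Birc5, which act in cytokinesis, differed by 0.12 and 0.25 at 75 mg/kg/day, and Prc1 was 0.49 ± 0.16 higher at 25 mg/kg/day without passing the threshold (adjusted p = 0.43).

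**Figure D4:**
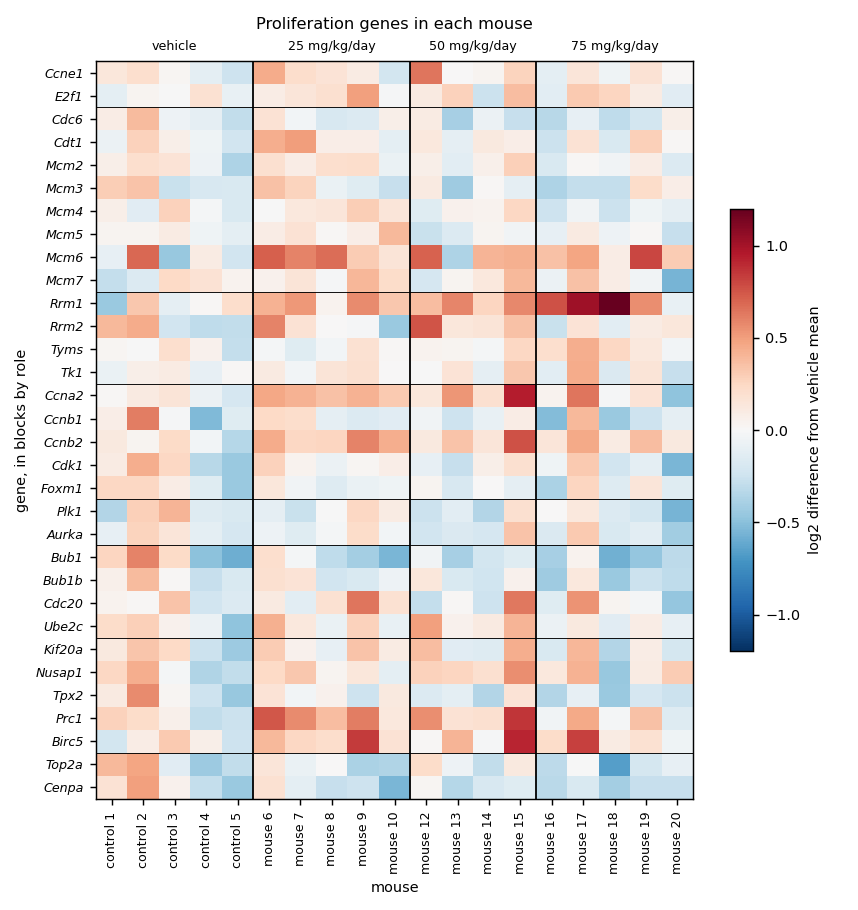
Log2 difference from the vehicle mean for each of the 32 tested proliferation genes (rows, in blocks by role) in each of the 19 mice (columns, by dose). Red is higher and blue lower, on a scale from -1.2 to 1.2. Whole columns differ within a dose, as control 2 and mouse 17 (red) against control 5 and mouse 20 (blue). The row of Rrm1 is red at 75 mg/kg/day except in mouse 20.

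Within a dose, members tended to be high or low together in a given mouse. The mean over the 32 members, as a difference from the vehicle mean, was 0.06, 0.27, 0.08, -0.15 and -0.25 in the vehicle mice and 0.25, 0.14, 0.05, 0.16 and -0.01 at 25 mg/kg/day. It was 0.11, -0.02, -0.02 and 0.30 at 50 mg/kg/day and -0.12, 0.26, -0.13, 0.05 and -0.16 at 75. All 4 groups overlapped, and the vehicle mice alone covered most of the range. In the same order of mice, the vehicle arrays had 20410, 22300, 19777, 26034 and 24891 lung spots well above background. The counts were 20786, 23817, 23873, 25049 and 25559 at 25 mg/kg/day. They were 19790, 24304, 25139 and 24301 at 50, and 24784, 23548, 25825, 24429 and 27279 at 75. Arrays with more such spots tended to have lower means in the vehicle, 25 and 75 mg/kg/day groups, less so at 50. The part of array detection in these means was not tested. Control 2 was highest of its group in 19 of 32 members and control 5 lowest in 18, while mouse 17 was highest at 75 mg/kg/day in 25. The group means were 0.00 ± 0.20 (SD, n = 5), 0.12 ± 0.10 (n = 5), 0.09 ± 0.15 (n = 4) and -0.02 ± 0.18 (n = 5). The 14 members of G1/S and S phase averaged 0.15, 0.11 and 0.06 at the 3 doses and the 18 of G2 and M phase 0.10, 0.08 and -0.08.

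Of the 6 slides, 5 held a vehicle mouse beside treated mice, and the comparison was repeated within those 5. The remaining slide held mice 8, 15 and 16, 1 of each dose, and no vehicle mouse, so these 3 have no such comparison. The median over the members of the difference between a mouse at 75 mg/kg/day and the vehicle mouse of its slide was 0.15, -0.02, -0.11 and -0.25 on 4 slides. At 25 mg/kg/day it was 0.17, -0.12, 0.29 and -0.14, and at 50 mg/kg/day 0.02, 0.24 and -0.25. Both signs occurred at each dose, while Cdkn1a was higher on every one of these pairs, by 0.83 to 3.96.

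Between mice of the same dose, no member was tied to Cdkn1a past the threshold. In a fit with a mean per dose group and the Cdkn1a ratio as a further term, 15 members had a slope above 0 and 17 below, with a median of -0.02 (log2 per log2 of Cdkn1a) against 0.00 over all genes. limma called 0 of 19314 genes, 0% of those fitted, with 740 genes and 1 member (Rrm1, 0.42 ± 0.18) at an unadjusted p under 0.05. The lowest slopes were those of Foxm1 (-0.22 ± 0.13) and Mcm4 (-0.18 ± 0.09), each with an adjusted p of 1. With slide also in the fit, 28 of the 32 slopes lay above 0 with a median of 0.11, and 1 gene and 0 members were called.

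**Figure D5:**
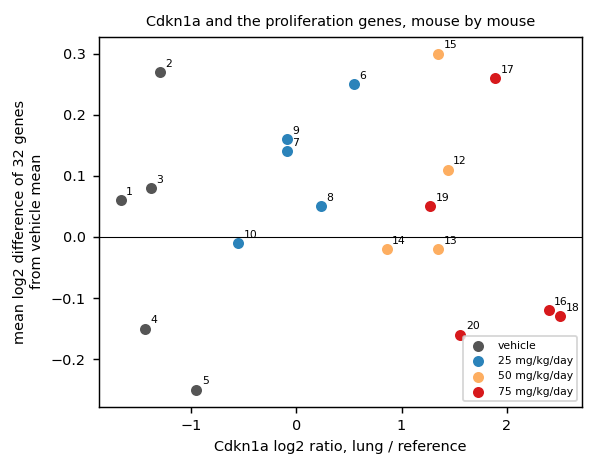
Log2 ratio of Cdkn1a (x axis) against the mean log2 difference of the 32 proliferation genes from the vehicle mean (y axis), 1 point per mouse, coloured by dose and numbered as in the text. Dose groups step to the right, from -1.67 in control 1 to 2.51 in mouse 18, while each group spans values on both sides of 0 on the y axis.

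The members were also compared by their promoter motifs. At 75 mg/kg/day the median difference was -0.12 over 13 tested members with a CHR and 0.02 over 14 without, and -0.06 over 10 with an E2F motif against -0.01 over 17 without. Members with CCAAT had a median of -0.06 (19 genes) and those without 0.06 (8 genes). At 25 mg/kg/day the medians were 0.07 with a CHR and 0.13 without. These medians were not tested. The Ccnb2 and Cdk1 windows printed above both hold CHR and CCAAT, and these genes differed by 0.24 and -0.12 at 75 mg/kg/day.

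Several regulators upstream of the members passed the threshold. Of 15 tested genes of the p53 and p21 axis and the CDK inhibitors, 4 rose and 0 fell at 75 mg/kg/day, where 2.64% of all genes rose and 1.51% fell: Cdkn1a, Ccng1 (cyclin G1, a p53 target; 2.30 ± 0.19, adjusted p = 6.5e-07), Mdm2 (the ligase that degrades p53; 1.12 ± 0.14, adjusted p = 5.3e-05) and Plk2 (0.81 ± 0.15, adjusted p = 0.0036). Cdkn2b, another CDK inhibitor, was 0.64 ± 0.19 higher at 75 mg/kg/day (adjusted p = 0.057). It passed in the trend over all mice (0.20 ± 0.06 per 25 mg/kg/day, limma adjusted p = 0.041), as did 4.64% of all genes. Of 7 tested G1 cyclins and kinases 2 rose and 1 fell at 75 mg/kg/day, where 2.64% of all genes rose and 1.51% fell. Ccnd1, cyclin D1, rose by 1.22 ± 0.11 (adjusted p = 1.3e-06) and Ccnd3 by 0.54 ± 0.10 (adjusted p = 0.0036), and Myc, which drives growth and cell cycle entry, fell by 0.57 on the log2 scale (adjusted p = 0.0059). Of 15 tested pocket proteins, E2F factors and DREAM subunits 0 passed at 75 mg/kg/day, with 3 higher and 0 lower at an unadjusted p under 0.05. Over all 19315 genes, 1828 were higher and 1506 lower at that level. Rbl2, the pocket protein p130 of DREAM, was 0.46 higher at 50 mg/kg/day (adjusted p = 0.048) and 0.31 at 75 (adjusted p = 0.11).

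Further S, G2 and M phase genes that are no members are set here beside the 4.14% of all genes that passed at 75 mg/kg/day, a share that comes to few genes in lists of this length. Of 34 tested S phase genes 0 were called at 75 mg/kg/day, with a median of -0.05. At the unadjusted level 0 were higher and 1 lower, beside 1828 and 1506 of all 19315 genes. Of 36 tested G2 and M phase genes 1 rose and 0 fell, with a median of -0.10. Of these 36, 26 lay below 0, beside 10032 of all 19315 genes. The one that rose was Psrc1, a spindle-associated protein and p53 target, which was 0.18, 0.75 and 1.77 ± 0.20 higher at the 3 doses (adjusted p = 1.6e-05 at 75 mg/kg/day). The lowest of the list at 75 mg/kg/day was Racgap1 (-0.39, adjusted p = 0.17).

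In the reference channel the members' median difference from vehicle was 0.00, 0.02 and 0.00 at the 3 doses, and the furthest member stood at 0.15. In the lung channel the medians were 0.10, 0.09 and -0.05.

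Some markers of lymphocytes, a possible source of cycling cells, fell, against 1.51% of all genes called lower at 75 mg/kg/day. Of 9 tested B cell markers 3 fell at 75 mg/kg/day (Cd79b -0.62, Blnk -0.58 and Tnfrsf13c -0.46, adjusted p of 0.027, 0.019 and 0.037), as did 1 of 8 NK cell markers (Klrb1c, -0.52, adjusted p = 0.019), and 0 of 6 T cell markers passed. Of 5 tested germinal centre and plasma cell markers 1 was called higher and 0 lower, where 2.64% of all genes were called higher. Of the B cell markers 7 lay below 0 and 2 above, Cr2 (0.23, adjusted p = 0.28) and Cd79a (0.03, adjusted p = 0.93). The mean over the B cell markers, as a difference from the vehicle mean, ran from -0.27 to 0.27 in vehicle mice, -0.24 to 0.19 at 25 mg/kg/day, -0.49 to -0.13 at 50 and -0.47 to -0.10 at 75. For NK cell markers the ranges were -0.38 to 0.35, -0.36 to 0.20, -0.57 to 0.09 and -0.68 to -0.13. Of the B cell markers 7 were well above background on all arrays, and of the NK cell markers 3. Their part in the members' values was not tested.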

How the data were processed

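Lung RNA (Cy5) and a universal mouse reference (Cy3) were hybridised to 19 Agilent arrays. The authors deposited spot intensities of 45018 spots an array, with 0 saturated. The headers name Feature Extraction 10.7.3.1 as the software. They mark the arrays of controls 1 and 3 and mice 12 and 20 for evaluation. A deposited log2 value table of all 19 arrays had column medians of -0.0526 to -0.0333. It correlated at r of 0.995 to 0.998 with loess ratios made without background subtraction, an alternative to the ratios used here. Its direction and scale match log2 of lung over reference, and its centring stays unknown.

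Median intensities were background-corrected (normexp, offset 50) and loess-normalised within arrays with limma 3.58.1 in R 4.3.3. Outlier spots (0.29%) were left out and the spots of a probe averaged. A probe needed a lung signal well above background on 4 arrays, and the brightest such probe stood for a gene. Of 41174 probes, 23374 (56.77%) were named through RefSeq accessions (GRCm38.p6), and the others entered the fit unnamed. A limma fit on 4 group means used all 19 arrays, Benjamini-Hochberg adjustment over 19315 genes and a threshold of 0.05. Trends used dose as a number. The procedure was checked on simulated data.

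The members and lists were chosen with earlier results of these data known, so lists are described by counts and medians with no test. Values are given for members past the threshold, the 8 with the smallest p in the trend, and Top2a, Ccnb1, Cdk1, Mcm2, Mcm5, Ccne1, E2f1 and Foxm1. From the other lists, genes past the threshold are named in part, at most 6 a list. Called markers of germinal centre and plasma cells, neutrophils, alveolar macrophages, smooth muscle and thymus are left unnamed. A gene of the growth arrest list is not reported here. Prc1, Birc5, Mcm6, Ccna2, Ccnb2, Plk1, Aurka, Nusap1, Tk1, Rrm2, Racgap1 and Rrm2b were named in addition after their values were seen. The design text gives 5 mice a group, while the 50 mg/kg/day group here has 4. Alternatives changed the background correction, normalisation, filter, probe rule, batch terms, weights, array set and channel.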

Additional observations from a re-analysis of the deposited data

Results flagged for a closer look

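Cdkn1a in mouse 14 at 50 mg/kg/day had a log2 ratio of 0.86, away from the other 3 mice of its dose, which lay between 1.35 and 1.44. It was the only distant sample among 100 groups examined (24 genes and the mean over the members, in 4 dose groups each), where chance marks about 5% of groups. Mouse 14 was still above every vehicle mouse and every mouse at 25 mg/kg/day.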

How the results depend on the processing

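The count of members called lower was 0 in all 33 alternatives for each dose, for 75 against 25 mg/kg/day and for both trends. Members called higher at 75 mg/kg/day were 1 with the settings used and 0 with an offset of 10, without the filter on dim probes or in the lung channel alone, and 0 to 1 when 1 mouse was left out. In the trend over all mice they were 0 without the filter, 3 with median centring and 0 to 1 without 1 mouse. With the scanner software's processed signals 4 members were called higher for each of 50 mg/kg/day, 75 mg/kg/day and the trend. Top2a turned to 0.84 (50 mg/kg/day) and 0.66 (75), and Rrm2 to 0.90 (75). The largest of the 4 at 75 mg/kg/day was Nusap1 (1.09, limma adjusted p = 0.0037). At 75 mg/kg/day 41.9% of all calls were then higher, against 63.6% with the settings used and 99.4% with median centring. Under those signals the members' median was 0.32 at 25 and 0.22 at 75 mg/kg/day. Median centring gave members' medians of 0.36, 0.32 and 0.58 at the 3 doses, 0.18 for 75 against 25 mg/kg/day, 0.17 in the trend and 0.09 in the trend among treated mice. With it the member called higher at 75 mg/kg/day was Mcm6 (1.14, limma adjusted p = 0.038) and not Rrm1 (adjusted p = 0.063). Centring also moved all genes, to 0.15, 0.14 and 0.35 at the 3 doses, which leaves the members at 0.21, 0.18 and 0.23 above them. The cause of these shifts was not tested.

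Over all genes the counts of calls moved as follows. At 25 mg/kg/day the 10 calls became 16 (processed signals), 0 (median centring, with 539 genes at an unadjusted p under 0.05 by limma), 19 (scan day as a block), 40 (slide as a random block), 3 (without the arrays marked for evaluation), 4 (lung channel) and 3 to 13 without 1 mouse. At 50 mg/kg/day the 209 became 123 (offset 10), 517 (processed), 9 (median centring), 406 (slide), 337 (scan day), 618 (random slide), 95 (without marked arrays), 100 (lung channel) and 75 to 214 without 1 mouse. At 75 mg/kg/day the 800 became 504 (offset 10), 1353 (processed), 1766 (slide), 1494 (scan day), 1848 (random slide) and 445 to 977 without 1 mouse. For 75 against 25 mg/kg/day the 106 became 66 (offset 10), 12 (median centring), 294 (slide), 241 (scan day), 296 (random slide), 267 (array weights), 197 (without marked arrays), 67 (lung channel) and 47 to 118 without 1 mouse. In the trend the 897 became 1591 (processed), 1739 (slide), 1493 (scan day), 1838 (random slide) and 586 to 1039 without 1 mouse. In the trend among treated mice the 106 became 22 (median centring), 304 (slide), 287 (scan day), 336 (random slide), 207 (array weights), 235 (without marked arrays) and 49 to 144 without 1 mouse. With slide in the fit the slope on Cdkn1a called 1 gene, with a median slope of 0.11 over the members. In the last 150 bases of the promoter windows 7 of 33 members (21.2%) held an E2F motif, against 5.69% of the windows of all genes. Each mouse has its own number, so groups share no replicate numbers to pair by, and the blocked fits are those by slide and scan day. Dim signals limit the rest: 9 of 32 members fell below the background criterion on some arrays.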

Other observations

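Genes of quiescence and growth arrest, which accompany exit from the cell cycle, changed in both directions. Of 13 tested, 3 rose and 4 fell at 75 mg/kg/day, where 2.64% of all genes rose and 1.51% fell. Their median difference was 0.00. Sesn2, a p53 target that restrains mTORC1, rose at 75 mg/kg/day (1.40, limma adjusted p = 2e-05), as did Gas6, a ligand of TAM receptors (0.66, adjusted p = 0.008). The genes that fell were Klf2 (-0.53, adjusted p = 0.013), Txnip (-0.51, adjusted p = 0.028), Sesn1 (-0.43, adjusted p = 0.019) and Pdgfra (-0.42, adjusted p = 0.014). Of 8 tested endothelial markers 0 were called higher and 2 lower at 75 mg/kg/day, against 2.64% and 1.51% of all genes. Gpihbp1, which anchors lipoprotein lipase on capillaries, fell by 1.42 on the log2 scale (limma adjusted p = 0.00011) and Ednrb by 1.24 (adjusted p = 0.0026). Of the 8 markers 5 lay above 0 and 3 below. Pecam1 (0.46, adjusted p = 0.073) and Kdr (0.47, adjusted p = 0.053) were among those above 0, without passing the threshold.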
